A study of Mus musculus with 6 samples.

Results

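The Pthlh and Indian hedgehog feedback loop of the growth plate was followed as 9 genes chosen by name, out of 46078 genes listed in the count files. They were the ligands Pthlh and Ihh, the receptors Pth1r and Ptch1, the signal transducer Smo, the secreted or membrane-held inhibitor Hhip and the transcription factors Gli1, Gli2 and Gli3. In a growth plate, prehypertrophic chondrocytes secrete Indian hedgehog, which acts on neighbouring chondrocytes and perichondrial cells and keeps up the production of parathyroid hormone-related protein, the product of Pthlh, near the end of the bone. That protein acts through its receptor Pth1r on chondrocytes further down the column, holds back their hypertrophy and so limits how many cells begin to make Ihh. In cells that receive hedgehog, Ptch1 no longer restrains Smo, the Gli factors become active, and Ptch1, Gli1 and Hhip are themselves transcribed, so that their mRNA is widely used as a readout of the pathway.

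RNA was measured by bulk RNA sequencing in growth plate cartilage dissected from the distal femur and proximal tibia of E18.5 mouse embryos. The 3 control libraries came from embryos with the genotype Idh1 LSL/+, in which the mutant Idh1 allele stays silent behind a lox-stop-lox cassette, and the 3 mutant libraries came from Col2a1-Cre; Idh1 LSL/+ embryos. Both groups therefore carried the conditional allele, and only mutants carried Cre, so effects of the transgene and of the mutant enzyme cannot be told apart. Cre was driven by regulatory sequence of the type 2 collagen gene, so recombination took place in cells of the chondrocyte lineage and not in every cell of the dissected tissue. Libraries held 23445687 to 30415773 assigned reads. Levels are given as CPM, which set each count against the total of its library after scaling by trimmed mean of M values (TMM), and fold changes are log2 of mutant over control.

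Messenger RNA of the targeted gene was at 47.3 ± 15.7 CPM in controls and 50.6 ± 5.01 CPM in mutants (mean ± SD, n = 3 each), with a log2 fold change of 0.10 (adjusted p = 0.94 by the edgeR quasi-likelihood test). Gene-level counts of Idh1 do not separate the mutant from the normal transcript, so they check the genotype in neither direction. Cartilage markers were present in all 6 libraries, with Col2a1 at 3147.8 ± 1181.2 CPM in controls and 4292.0 ± 840.4 CPM in mutants, but so were markers of bone, tendon and muscle. The library of mutant 3 held 26356 Xist counts and no count of 4 Y-linked genes, whereas the other 5 held 0 to 13 Xist counts, so sex was not evenly spread over the groups.

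All 9 loop genes were measured at counts that passed the filter on low values. Pthlh, Hhip, Gli1, Ptch1 and Smo were lower in every mutant library than in any control library, to between 41.9% and 87.6% of the control mean. Ihh, Pth1r, Gli2 and Gli3 overlapped between the groups. None of the 9 passed an adjusted p of 0.05 by the edgeR quasi-likelihood test, in which 0.19% of the 16813 genes tested were called, and 0 of the 9 against 0.137% of all genes were called lower. An unadjusted p below 0.05 was reached by 5 of the 9, where 8.64% of all genes did so. All 5 were lower, against 4.93% of all genes, and 0 of the 9 were higher, against 3.71%. Separation of all mutant from all control libraries in the lower direction was seen for 5 of the 9 genes and for 7.58% of all genes, and separation in either direction for 14.4% of all genes. DESeq2, fitted to the same counts, called Pthlh, Hhip, Gli1 and Ptch1 lower, so 4 of the 9 genes, against 0.833% of all genes called lower and 1.15% called in either direction. The log2 fold change was below 0 for 8 of the 9 loop genes and for 50.7% of all genes, and its median was -0.26 over the loop and -0.0026 over all genes tested. In bulk tissue, fewer cells of a type and less RNA per cell cannot be told apart.

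**Figure D1:**
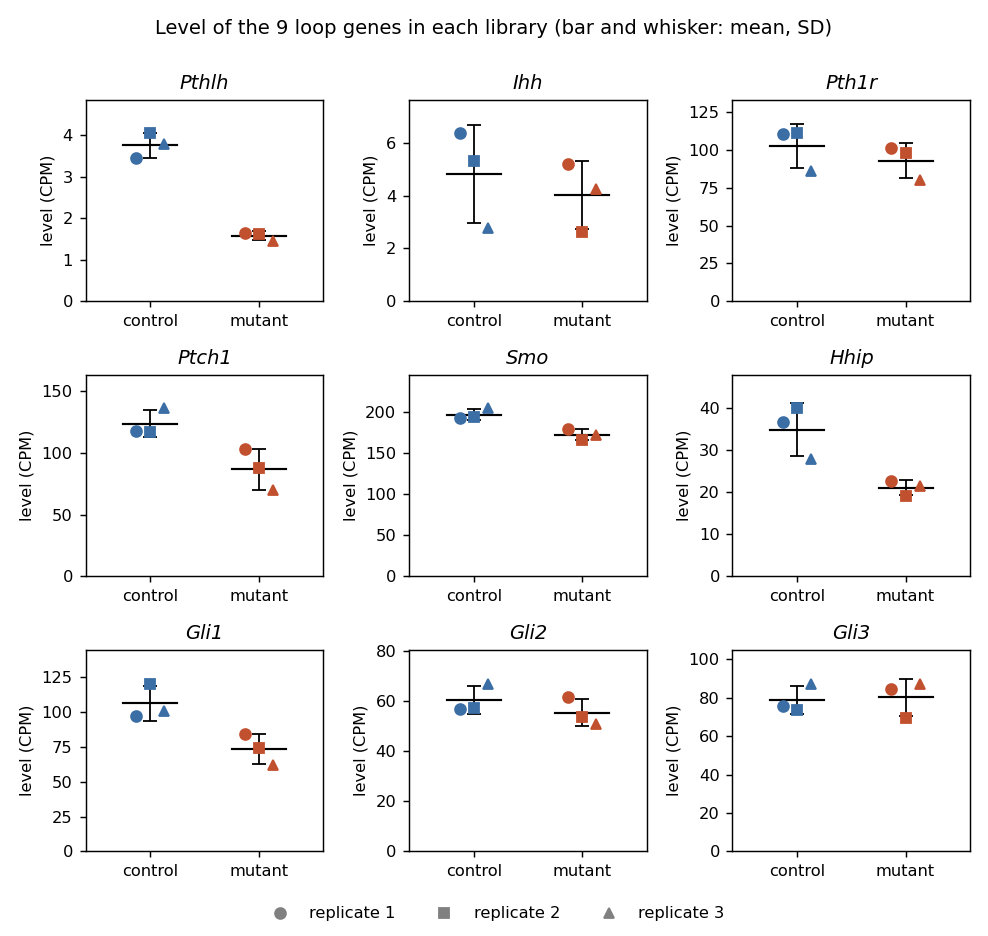
Level of each loop gene in CPM (vertical axes, each from 0) in the 3 control (blue) and 3 mutant (red) libraries, with the mean as a bar and the SD as whiskers; marker shapes give the replicate number. Pthlh, Ptch1, Smo, Hhip and Gli1 show no overlap between the groups, while Ihh, Pth1r, Gli2 and Gli3 do.

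**Figure D2:**
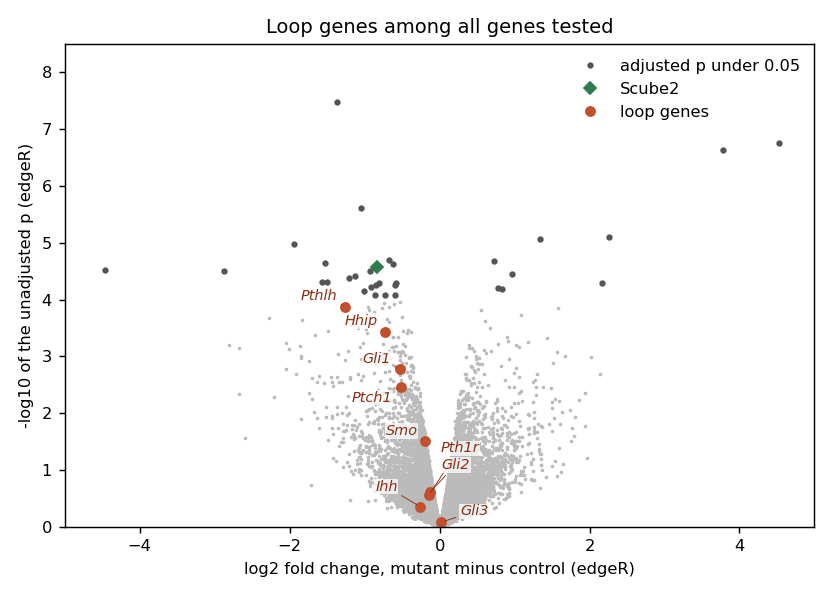
Log2 fold change (horizontal axis) against -log10 of the unadjusted edgeR p (vertical axis) for the 16813 genes tested, with loop genes in red, Scube2 as a green diamond and the 32 genes past an adjusted p of 0.05 in dark grey. Pthlh lies nearest of the loop genes to the called genes, and 8 of the 9 lie left of 0.

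The 3 genes of the loop with the lowest mutant level relative to control among those with a sequence in the RefSeq promoter table were Pthlh, Hhip and Ptch1, and their proximal upstream sequences are shown because hedgehog-responsive transcription of Ptch1 and Hhip is read from Gli sites. Each is the 250 bases upstream of the RefSeq start on build GRCm38.p6, 5′ to 3′ on the minus strand, which is the coding strand of all 3 genes. They lie at chr6:147264014-147264263 for Pthlh, chr13:63565736-63565985 for Ptch1 and chr8:80058009-80058258 for Hhip. The RefSeq start need not be the end of the gene span in the count files. By the spans given below, the Ptch1 window lies wholly inside the gene and the Pthlh window partly inside it. The Hhip window lies outside its gene. Capitals mark the 9-base stretch, on either strand, with the fewest mismatches to the Gli motif GACCACCCA. Where stretches tied, as in Pthlh and Ptch1, only the first found is marked.
Pthlh: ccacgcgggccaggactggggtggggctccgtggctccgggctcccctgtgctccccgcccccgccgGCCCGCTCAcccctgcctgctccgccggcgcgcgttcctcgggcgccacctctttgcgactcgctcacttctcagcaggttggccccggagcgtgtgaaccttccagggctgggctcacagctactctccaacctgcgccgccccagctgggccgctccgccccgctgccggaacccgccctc
Ptch1: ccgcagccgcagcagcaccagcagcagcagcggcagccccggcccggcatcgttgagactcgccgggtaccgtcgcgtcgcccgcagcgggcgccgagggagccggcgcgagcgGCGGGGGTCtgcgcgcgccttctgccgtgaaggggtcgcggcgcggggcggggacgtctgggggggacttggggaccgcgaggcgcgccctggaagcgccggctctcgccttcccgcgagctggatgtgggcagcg
Hhip: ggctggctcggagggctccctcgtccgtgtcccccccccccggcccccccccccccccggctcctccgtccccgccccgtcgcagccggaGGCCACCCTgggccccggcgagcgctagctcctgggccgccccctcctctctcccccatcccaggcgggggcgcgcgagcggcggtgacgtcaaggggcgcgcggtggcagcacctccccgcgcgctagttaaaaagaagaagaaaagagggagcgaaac
The closest stretch differed from the motif at 3 bases in Pthlh, 3 in Ptch1 and 2 in Hhip. The exact motif or its reverse complement TGGGTGGTC was found in none of the 8 loop genes matched in the table and in 0.225% of all 32851 windows of the same length, and 51.8% of all windows held a stretch with at most 2 mismatches. No match says only that these letters are not in this window. The windows held 26 CpG dinucleotides for Pthlh, 41 for Ptch1 and 28 for Hhip, against a median of 6 over all windows. Gli1 has no entry in the table.

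Pthlh, which encodes parathyroid hormone-related protein, showed the largest difference of the loop. The gene lies at chr6:147252101-147264167 on the minus strand of GRCm38, with 4 exon blocks covering 1603 bases. It had 97, 124 and 105 counts in the control libraries and 39, 40 and 42 in the mutant libraries, or 3.45, 4.05 and 3.79 CPM against 1.65, 1.63 and 1.45 CPM. Each mutant library lay below every control library, and the spread within each group was narrow. The means were 3.76 ± 0.302 and 1.58 ± 0.112 CPM (SD, n = 3 each), which put mutants at 41.9% of control. The log2 fold change was -1.26 (SE 0.21, 95% interval -1.72 to -0.80), with an adjusted p of 0.0591 by edgeR and 0.000645 by DESeq2. By unadjusted edgeR p, Pthlh ranked 37 of the 16813 genes, and the exact two-sided permutation test gave p = 0.1, the smallest that 3 against 3 libraries allow. With the replicate number as a block, the adjusted p was 0.243 by edgeR and 0.0631 by DESeq2, so that the DESeq2 call was lost.

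Ihh, the hedgehog ligand of the growth plate, was low and variable. The gene lies at chr1:74945315-74951672 on the minus strand, with 3 exon blocks covering 3048 bases. Its counts were 179, 163 and 77 in controls and 123, 65 and 123 in mutants, or 6.36, 5.32 and 2.78 CPM against 5.21, 2.64 and 4.24 CPM. Control 3 and mutant 2 were both low. Controls 1 and 2 lay above every mutant, and the groups overlapped through control 3, which lay below mutants 1 and 3. This gave a log2 fold change of -0.26 (SE 0.32, 95% interval -0.99 to 0.47), with an adjusted p of 0.891 by edgeR and an exact permutation p of 0.5. The interval is wide, so neither a lower nor a higher mutant level of Ihh within it is excluded by these libraries. Leaving out 1 library at a time moved the log2 fold change between -0.53, without control 3, and -0.01, without control 1.

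Of the 2 other hedgehog ligands, Shh, the ligand of limb patterning, had 0 counts in all 6 libraries, where 3 counts correspond to 0.0986 to 0.128 CPM per library. Dhh, the ligand known from testis and nerve sheath, was at 3.16 ± 1.97 CPM in controls and 3.14 ± 1.04 CPM in mutants. Pth, the circulating hormone that shares the receptor Pth1r, likewise had 0 counts in every library. Such limits cover counting error only.

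Pth1r, the receptor of parathyroid hormone-related protein, overlapped between the groups. The gene lies at chr9:110722085-110747145 on the minus strand, with 18 exon blocks covering 2925 bases. It was at 110.6, 111.0 and 86.0 CPM in controls and 101.2, 97.7 and 80.0 CPM in mutants. Control 3 was lower than 2 of the mutants. The log2 fold change was -0.14 (SE 0.12, 95% interval -0.42 to 0.13), with an adjusted p of 0.821 by edgeR. Leaving out 1 library moved it between -0.25, without control 3, and -0.04, without mutant 3. Exons of Pth1r share 95 bases, or 3.25% of its length, with Myl3 on the opposite strand, and counting ignored the strand.

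Ptch1, the hedgehog receptor and itself a target of the pathway, lies at chr13:63508328-63573598 on the minus strand, with 28 exon blocks covering 8745 bases. It was at 117.9, 116.9 and 136.0 CPM in controls and 103.2, 87.5 and 70.0 CPM in mutants. All mutant libraries lay below all control libraries, with mutant 1 closest to them. The means were 123.6 ± 10.8 and 86.9 ± 16.7 CPM (SD, n = 3 each), so mutants were at 70.3% of control. The log2 fold change was -0.51 (SE 0.13, 95% interval -0.81 to -0.21), with an adjusted p of 0.265 by edgeR and 0.0292 by DESeq2. DESeq2 called the gene without mutant 1 and in none of the 5 fits that left out another library, in which its adjusted p reached 0.33. With the replicate block the adjusted p was 0.55 by edgeR and 0.116 by DESeq2.

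Smo, the membrane protein that Ptch1 restrains, lies at chr6:29735503-29761365 on the plus strand, with 12 exon blocks covering 5621 bases. It was at 192.6, 194.0 and 204.6 CPM in controls and 179.1, 166.4 and 172.3 CPM in mutants. The groups did not overlap, and the difference was small. Means of 197.1 ± 6.5 and 172.6 ± 6.4 CPM (SD, n = 3 each) gave a log2 fold change of -0.19 (SE 0.08, 95% interval -0.36 to -0.02), with an adjusted p of 0.52 by edgeR and 0.539 by DESeq2.

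Hhip binds hedgehog ligands at the cell surface and limits their range, and its transcription follows the pathway. It lies at chr8:79966115-80058006 on the minus strand, with 14 exon blocks covering 4896 bases, and its upstream sequence is the one shown above with 2 mismatches to the Gli motif. It had 1030, 1221 and 768 counts in controls and 531, 471 and 623 in mutants, or 36.6, 39.8 and 27.7 CPM against 22.5, 19.1 and 21.5 CPM. No library of one group reached into the other, although control 3 stood well below the other controls. The means were 34.7 ± 6.26 and 21.0 ± 1.73 CPM (SD, n = 3 each), with mutants at 60.6% of control. By edgeR the log2 fold change was -0.72 (SE 0.14, 95% interval -1.03 to -0.42), with an adjusted p of 0.103 by edgeR and 0.000432 by DESeq2. Without control 3 the log2 fold change was -0.86 and the edgeR adjusted p was 0.0372, below the threshold. This was the only 1 of 6 edgeR fits leaving out a library that called Hhip, and the adjusted p of the others reached 0.434. DESeq2 called Hhip in 6 of 6 such fits. With the replicate block the adjusted p was 0.285 by edgeR and 0.012 by DESeq2.

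Gli1, a transcriptional activator whose own expression depends on hedgehog input, lies at chr10:127329889-127341589 on the minus strand, with 13 exon blocks covering 3665 bases. It was at 96.8, 120.1 and 100.7 CPM in controls and 83.8, 74.2 and 62.0 CPM in mutants. The 3 mutant libraries were all below the 3 control libraries. Means of 105.9 ± 12.5 and 73.3 ± 10.9 CPM (SD, n = 3 each) put mutants at 69.3% of control. Its log2 fold change was -0.53 (SE 0.12, 95% interval -0.81 to -0.26), with an adjusted p of 0.182 by edgeR and 0.00937 by DESeq2. DESeq2 called Gli1 in 3 of the 6 fits that left out 1 library, losing it without control 2, mutant 2 or mutant 3, with adjusted p values up to 0.16. With the replicate block the adjusted p was 0.367 by edgeR and 0.0429 by DESeq2.

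Gli2, the main activator that is present before the signal arrives, lies at chr1:118834132-119053619 on the minus strand. It was at 56.9, 57.5 and 67.1 CPM in controls and 61.6, 53.8 and 51.0 CPM in mutants, with overlapping groups and a log2 fold change of -0.13 (SE 0.10, 95% interval -0.35 to 0.10, adjusted p = 0.805 by edgeR), which was -0.21 without mutant 1 and -0.04 without control 3. Gli3, which acts mostly as a repressor in the absence of hedgehog, lies at chr13:15463235-15730026 on the plus strand. It was at 75.7, 73.5 and 87.3 CPM in controls and 84.2, 69.2 and 86.8 CPM in mutants, again overlapping. Its log2 fold change was 0.02 (SE 0.11, 95% interval -0.22 to 0.26, adjusted p = 0.976 by edgeR) and took either sign when single libraries were left out. For both genes the intervals hold changes of modest size in either direction.

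Compared per kilobase of exon, the order in controls began with Smo at 35.1 ± 1.16 and Pth1r at 35.1 ± 4.9 CPM per kilobase, followed by Gli1 at 28.9 ± 3.41 and Ptch1 at 14.1 ± 1.23. Gli2 was at 8.8 ± 0.836, Gli3 at 8.22 ± 0.772 and Hhip at 7.09 ± 1.28 CPM per kilobase. The ligands came last, with Pthlh at 2.35 ± 0.188 and Ihh at 1.58 ± 0.603 CPM per kilobase (SD, n = 3 throughout). Neighbours whose control libraries overlapped were Smo and Pth1r, Pth1r and Gli1, Gli2 and Gli3, and Gli3 and Hhip. In mutants the order began with Pth1r at 31.8 and Smo at 30.7 CPM per kilobase, and Gli1 again came next, ahead of Ptch1 at 9.94. The ligands exchanged places at the bottom of the order, with Ihh at 1.32 and Pthlh at 0.983 CPM per kilobase, although their mutant libraries overlapped. Among all 16813 genes tested, the control level per length ranked Smo 1290 and Ihh 11746.

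**Figure D3:**
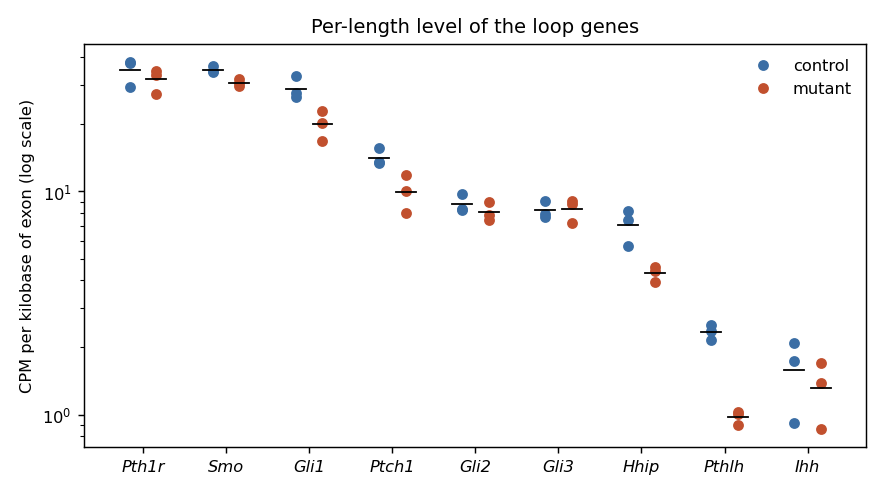
Level per kilobase of exon (vertical axis, log scale, CPM per kilobase) of the loop genes in each control (blue) and mutant (red) library, with bars at group means. Pth1r and Smo lie near 35.1 in controls, and Pthlh and Ihh lie lowest in both groups.

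Ratios of per-length levels within a library, which do not depend on the scaling of that library, were compared for 6 pairs. The Pth1r to Pthlh ratio, receptor over ligand, ran from 12.4 to 17.6 over the controls and from 30.3 to 33.5 over the mutants. The groups did not overlap and the ratio was 2.17 times as high in mutants, with an exact permutation p of 0.1, the smallest this design allows, and 0.6 after Benjamini-Hochberg adjustment over the 6 ratios. The Pthlh to Ihh ratio was 1.03, 1.45 and 2.59 in controls and 0.603, 1.17 and 0.649 in mutants, with overlap and an exact permutation p of 0.2. Gli1 to Ptch1, a ratio of 2 pathway readouts, was 1.96, 2.45 and 1.77 in controls and 1.94, 2.02 and 2.11 in mutants. It differed by -0.01 on the log2 scale (exact permutation p = 0.9), with overlapping groups. The Gli3 to Gli2, Hhip to Ptch1 and Ptch1 to Ihh ratios also overlapped between groups, with exact permutation p values of 0.3 and 0.6 and 0.6. Control 3, where Ihh was low and Ptch1 high, had the highest Ptch1 to Ihh ratio at 17.0, against 5.75 to 11.6 in the other 5 libraries.

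The rest of the hedgehog pathway was read from 4 further lists. Among genes for production and release of the ligand, 7 of 8 were tested and 1, Scube2, was called, lower in mutants, while the median log2 fold change was 0.08. Over all genes, edgeR called 0.137% lower. Scube2, a secreted protein that helps free lipid-bearing hedgehog from producing cells, had 990, 1181 and 1006 counts in controls and 421, 585 and 589 in mutants. It fell from 36.7 ± 1.71 to 20.6 ± 2.98 CPM, a log2 fold change of -0.83 (SE 0.11, 95% interval -1.08 to -0.58), with an adjusted p of 0.0355 by edgeR and 2.83e-07 by DESeq2. No fit of edgeR that left out 1 library called it, with adjusted p values of 0.0606 to 0.132, and all 6 such fits of DESeq2 did. With the replicate block, its adjusted p was 0.0854 by edgeR and 4.27e-05 by DESeq2. Disp1, the transporter that exports hedgehog from the cell and the highest of the list per length at 11.4 CPM per kilobase, had a log2 fold change of 0.08. Disp2 had the largest positive one, 0.76, from group means below 1 CPM (adjusted p = 0.692 by edgeR).

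Of 5 tested reception genes out of 6, 0 were called, with a median log2 fold change of -0.05. Cdon, a co-receptor, and Gpc3, a glypican that competes for the ligand and the highest of the list per length, had log2 fold changes of 0.15 and -0.17. Of 17 signal transduction genes, all tested, 0 were called and the median was -0.03, with extremes of 0.12 for Evc, a ciliary protein of the Smo complex, and -0.25 for Tulp3, which carries receptors into the cilium. Prkaca, the catalytic subunit of protein kinase A that holds Gli factors in check and also serves Pth1r, was the highest of this list per length, with a log2 fold change of 0.02.

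Target genes outside the loop were 9 tested of 10, with 0 called by edgeR and a median of -0.18. Their summed level was 318.5 to 323.1 CPM in controls and 279.3 to 310.9 CPM in mutants, without overlap. Bcl2, an inhibitor of cell death, was at 38.5 ± 2.86 CPM in controls and 28.2 ± 2.83 CPM in mutants, with a log2 fold change of -0.45 and adjusted p values of 0.166 by edgeR and 0.029 by DESeq2. The DESeq2 call of Bcl2 held in 2 of 6 fits leaving out a library, those without control 1 or mutant 1, and not with the replicate block (adjusted p = 0.28 by DESeq2). Ccnd1, the cyclin of early cell cycle and the most abundant of the list per length, had a log2 fold change of -0.18 (adjusted p = 0.653 by edgeR). Nkx3-2, a repressor of chondrocyte hypertrophy, was the largest in the other direction, at 2.48 ± 0.509 CPM in controls and 4.07 ± 0.668 CPM in mutants (log2 fold change 0.71, adjusted p = 0.394 by edgeR), with every mutant above every control. Targets thus differed in sign, and none of the differences passed the edgeR test.

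For the parathyroid hormone receptor pathway beyond Pthlh and Pth1r, 16 of 18 genes were tested and 0 were called by either edgeR or DESeq2. The median log2 fold change was -0.07, and the values ran from -0.22 for Adcy9, an adenylyl cyclase, to 0.06 for Mef2d, a transcription factor whose relatives promote hypertrophy.

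**Figure D4:**
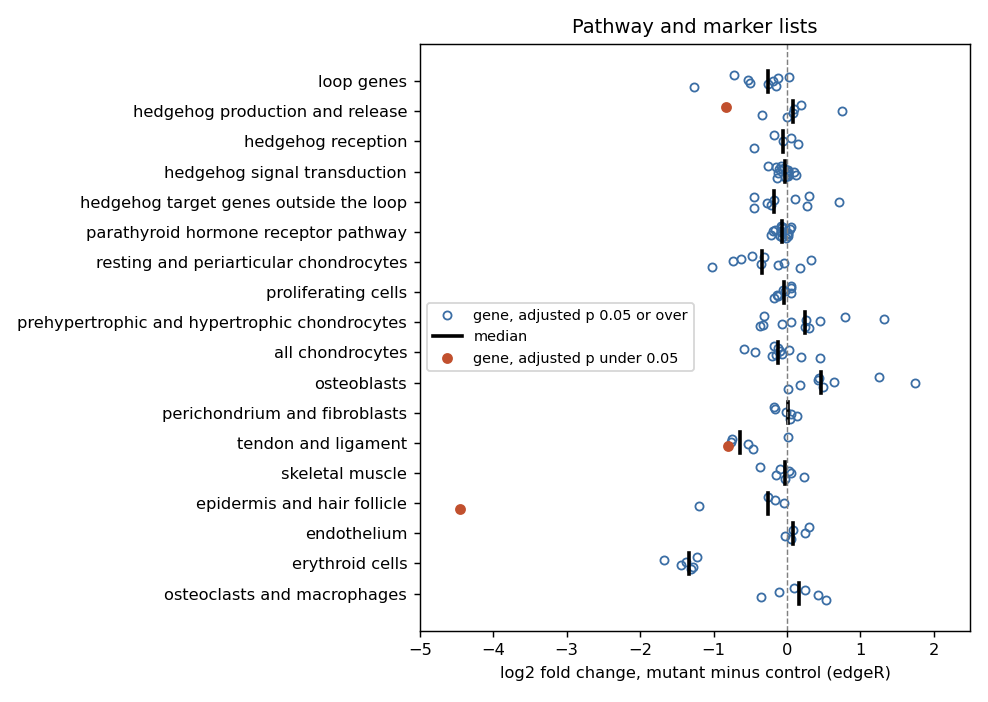
Log2 fold change (horizontal axis) of each tested gene of the loop, of the 5 pathway lists and of the 12 marker lists (rows), with medians as bars and genes past an edgeR adjusted p of 0.05 in red. Red points are Scube2, Tnmd and Krt5, and the loop median is -0.26.

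Markers of the cells that could hold these transcripts were read beside the loop. Parathyroid hormone-related protein is made near the bone end, and the summed level of 10 resting and periarticular chondrocyte markers was 639.2 to 937.2 CPM in controls and 537.7 to 551.0 CPM in mutants. Abi3bp and Prg4 weighed most in this sum, at control means of 293.5 and 133.2 CPM, and Prg4 overlapped between the groups. None of the 10 was called by edgeR, and none was at 0 in any library. An unadjusted edgeR p below 0.05 was reached by 5, all lower, against 8.64% of all genes in either direction and 4.93% lower. DESeq2 called Abi3bp, the highest of the list per length, at 293.5 and 210.6 CPM, and Clu, at 50.3 and 32.5 CPM. Over all genes it called 0.833% lower. With 1 library left out, DESeq2 called Abi3bp in 3 of 6 fits, those without control 1, mutant 2 or mutant 3, and Clu in 2 of 6, those without control 1 or mutant 1. Under the replicate block the DESeq2 adjusted p was 0.0147 for Abi3bp and 0.113 for Clu. Ucma, a cartilage matrix protein of the upper growth plate, had the lowest log2 fold change of the list, -1.02, with overlapping groups (adjusted p = 0.506 by edgeR), and -0.55 without control 2. Members in the other direction were Gdf5, a growth factor of the joint region, at 0.33 (adjusted p = 0.746 by edgeR) and Grem1, an inhibitor of bone morphogenetic proteins, at 0.18 (adjusted p = 0.826 by edgeR), and Creb5, a transcription factor, was at -0.03. The part of these cells in the levels of Pthlh was not tested.

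Ihh belongs to prehypertrophic chondrocytes, and the summed level of 11 prehypertrophic and hypertrophic markers was 774.0 to 2134.0 CPM in controls and 1761.3 to 2709.5 CPM in mutants, with overlap and 0 genes called by edgeR or DESeq2. Control 3, low in Ihh, had the lowest sum of the 6 libraries, whereas mutant 2, lowest in Ihh, had the highest. Ibsp and Spp1 weighed most in the sum of mutant 2, at 36314 and 10457 counts. Single members differed from the sum. Col10a1 was lowest in control 3 (1372 counts) and, of the mutants, in mutant 2 (2956), and so was Prkg2 (76 and 87). Sp7, Runx2, Alpl and Mmp13 were instead highest of the mutants in mutant 2. Ibsp, a matrix protein of mineralising tissue, was at 475.2 ± 444.7 CPM in controls and 1189.8 ± 265.0 CPM in mutants (adjusted p = 0.557 by edgeR), and Runx2, a driver of hypertrophy, was at 43.5 and 33.9 CPM (adjusted p = 0.563 by edgeR). The 11 general chondrocyte markers summed to 5069.0 to 9022.9 CPM in controls and 7020.3 to 9369.5 CPM in mutants, with 0 called. The 8 markers of proliferating cells overlapped too, with 0 called.

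The 6 tendon and ligament markers, none of them at 0, summed to 3207.9 to 3441.2 CPM in controls and 2109.7 to 2472.3 CPM in mutants. Of these, 1 was called by edgeR and 5 by DESeq2, all lower, against 0.137% and 0.833% of all genes called lower. Thbs4, a matrix protein of tendon, overlapped at 815.5 and 825.0 CPM. Tnmd, a membrane protein of tendon cells, fell from 503.9 ± 58.6 to 288.1 ± 31.9 CPM (log2 fold change -0.81, adjusted p = 0.0374 by edgeR), a call that held in 1 of 6 edgeR fits leaving out a library, the one without control 3, and in 6 of 6 by DESeq2. Under the replicate block, its adjusted p was 0.19 by edgeR and 1.2e-05 by DESeq2. The 6 erythroid markers summed to 550.3 to 1590.5 CPM in controls and 290.4 to 429.9 CPM in mutants, with a median log2 fold change of -1.34. Of these, edgeR called 0 and DESeq2 called 2, both lower, beside the same shares of 0.137% and 0.833% over all genes. Of 8 markers of epidermis, which also makes Pthlh, 5 were tested. Krt5, the keratin of basal keratinocytes, fell from 83, 242 and 153 counts in controls to 8, 0 and 11 in mutants (log2 fold change -4.46, adjusted p = 0.0355 by edgeR and 0.00256 by DESeq2), while the list summed to 11.1 to 21.3 CPM in controls and 10.3 to 11.1 CPM in mutants and Dsg3 was at 0 in all 6 libraries. Krt14, another keratin of the list, had 1, 5 and 8 counts in controls and 0, 0 and 1 in mutants and was not tested. Krt15 had 0, 2 and 11 against 3, 1 and 7 and was not tested either. Krt1, Krt10, Trp63 and Lor overlapped between the groups, with log2 fold changes of -1.2, -0.04, -0.16 and -0.26. The Krt5 call held in 1 of 6 edgeR fits leaving out a library, the one without control 1, and in 3 of 6 by DESeq2. Without control 2 its adjusted p was 0.132 by edgeR, and with the replicate block it was 0.145 by edgeR and 0.133 by DESeq2, so that both calls were lost. The part of tendon, blood or skin in the lower hedgehog readouts and Pthlh was not tested.

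The remaining lists overlapped between groups in their summed level and had 0 genes called by edgeR or DESeq2. Osteoblast markers summed to 33357.8 to 47822.3 CPM over all 6 libraries, nearly all of it Col1a1, with a median log2 fold change of 0.47 over 8 genes. Of these, 0 had a log2 fold change below 0, against 50.7% of all genes. Dmp1 was at 37.0 ± 40.4 CPM in controls and 124.5 ± 63.9 CPM in mutants, without overlap (log2 fold change 1.75, adjusted p = 0.522 by edgeR). The part of bone in the levels of the loop was not tested. The medians were 0.01 for perichondrium and fibroblasts, -0.03 for skeletal muscle, 0.08 for endothelium and 0.17 for osteoclasts and macrophages.

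**Figure D5:**
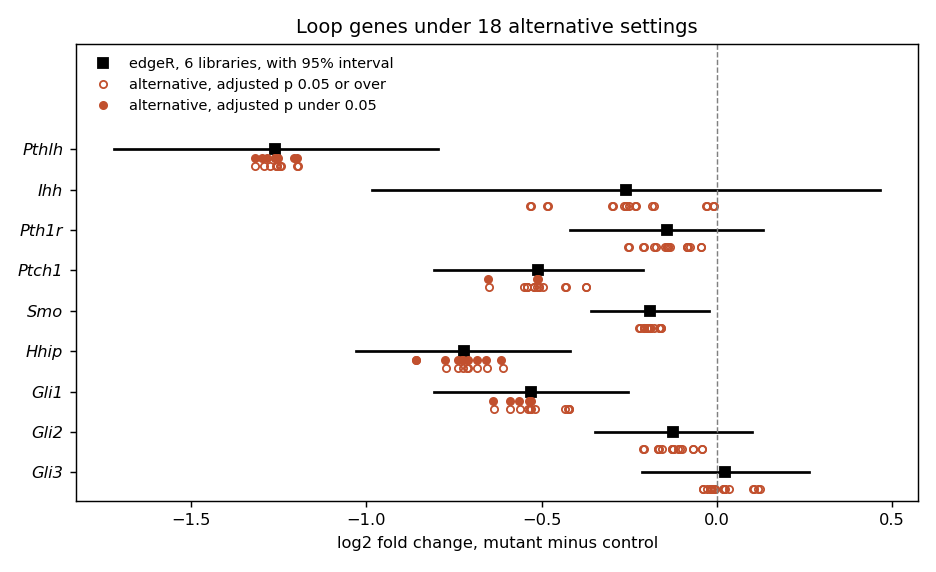
Log2 fold change (horizontal axis) of each loop gene by edgeR on 6 libraries (black square, with its 95% interval) and under 18 alternative settings, filled where the adjusted p was below 0.05. Pthlh, Hhip, Gli1 and Ptch1 lie below 0 in every setting, and Gli3 lies on both sides of 0.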

How the data were processed

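Growth plate cartilage of control and Idh1 mutant E18.5 embryos was sequenced, with 3 libraries per group. The authors trimmed reads with Trim Galore 0.6.4, aligned them to GRCm38 with STAR 2.6.1d and deposited counts per gene made with featureCounts 1.6.4 without regard to strand, 1 file per library. Counts were used as deposited, with 0 sample columns ignored. Genes passing filterByExpr (16813) were tested with the quasi-likelihood test of edgeR 4.0.16 in R 4.3.3, with TMM scaling, genotype as the only term and Benjamini-Hochberg adjustment over all genes tested. The study also fitted litter, which the labels do not give. The labels name separate samples without saying more of their origin, so p-values measure the spread between these samples. A label on animal care speaks of 2 months, but the age label reads E18.5 and was used.

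Alternatives were DESeq2 1.42.0, upper-quartile scaling, no filter, a stricter filter, a block for replicate number and leaving out each library. Leaving out libraries under DESeq2 was added after seeing the data. Tests were checked on simulated counts. Members and lists were chosen with earlier results of these data known. Named from each pathway list were the called genes, the highest per length and the largest change in each direction, and likewise from those marker lists described beside a result. Lengths are of merged exons, and upstream sequences are from RefSeq, with 8 of 9 members matched. Intervals are at 95% and floors at 3 counts. The values of 1 gene that this rule names are not reported here.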

Additional observations from a re-analysis of the deposited data

How the results depend on the processing

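The number of genes called was 32 by edgeR, 193 by DESeq2 and 259 by edgeR with no filter on low counts. Leaving out 1 library gave 3 to 17 by edgeR and 108 to 244 by DESeq2. Over the loop, 0 genes were called by edgeR, 4 by DESeq2 and 4 with no filter, and leaving out 1 library gave 0 to 1 by edgeR and 2 to 4 by DESeq2. The log2 fold changes behind these calls were -1.261 by DESeq2 and -1.26 with no filter for Pthlh, -0.51 and -0.5133 for Ptch1, -0.5314 and -0.5343 for Gli1, and -0.7243 and -0.7274 for Hhip. The cause of these differences between tests was not tested.

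Whether the replicate numbers pair the libraries is not known, since the labels give no litter. Deviations of same-numbered libraries from their group means correlated at -0.127, 0.007 and -0.0953, and those of other pairs at -0.0637 to 0.158. With 3 libraries a group, these correlations can neither show nor exclude pairing. With the replicate block, edgeR called 3 genes in all, 0 of the loop and 0 of the list for production and release of the ligand, where it had called 1. DESeq2 with the replicate block called 96, of which 2 were loop genes, Gli1 at -0.5358 and Hhip at -0.7111.

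With 1 library left out, log2 fold changes by edgeR ran from -1.317 to -1.196 for Pthlh, -0.6505 to -0.3742 for Ptch1, -0.6369 to -0.4227 for Gli1, -0.8583 to -0.6093 for Hhip and -0.03981 to 0.1231 for Gli3. By DESeq2 they ran from -1.319 to -1.199, -0.6543 to -0.3736, -0.6401 to -0.4217, -0.8599 to -0.6167 and -0.0392 to 0.1177 in the same order. The list for production and release of the ligand then had 0 genes called by edgeR, and the list of targets had 0 to 1 by DESeq2, 1 by DESeq2 on all libraries and 1 with no filter. The mutant minus control difference in the log2 ratio of Gli1 to Ptch1 ran from -0.1153 to 0.1214. That of Ptch1 to Ihh ran from -0.5843 to 0.1326. Of 162 alternative values of the 9 loop genes, 127 had the direction and the call of the edgeR result, 27 passed it only in the alternative and 8, all of Gli3, changed sign. Small differences of Idh1 (-0.04874 to 0.4074), Disp1 (-0.0293 to 0.1941), Cdon (-0.02686 to 0.2526), Prkaca (-0.1556 to 0.2386) and Mef2d (-0.1075 to 0.2537) also changed sign when 1 library was left out. With 3 libraries a group, exact permutation tests cannot go below 0.1.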

Other observations

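The genes whose log2 CPM followed a loop gene most closely over the 6 libraries were listed for Pthlh, Ihh and Gli1 among 14448 genes with a mean of at least 1 CPM. These are descriptions over 6 points that share their libraries and, for Pthlh and Gli1, the division into controls and mutants, and no test was made of them. For Pthlh they were Tet1, a DNA demethylating enzyme, at a Pearson r of 0.999, Spon1 at 0.996, Fam101b at 0.993, Kcnk2, a potassium channel, at 0.993 and Clpp at 0.991. Spon1, a secreted matrix protein, fell with a log2 fold change of -1.37 (adjusted p = 0.000552 by edgeR) and Kcnk2 fell with one of -0.91 (adjusted p = 0.0389 by edgeR), while Tet1 had one of -0.24 (adjusted p = 0.441 by edgeR).

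For Gli1 the nearest were Slc40a1, the iron exporter, at 0.989, Kctd12, Bmp7 and Ftsj2 at 0.986 each and Aldh6a1 at 0.983. Bmp7, a bone morphogenetic protein, had a log2 fold change of -0.81 (adjusted p = 0.153 by edgeR). For Ihh they were Nqo1, a quinone reductase, at 0.993, Rin2 and Prkcz at 0.977 each, Bbs7 at 0.974 and 3110079O15Rik at 0.97, none of them past the edgeR test (adjusted p from 0.889 to 0.947). Between loop genes, log2 CPM over the 6 libraries correlated at 0.917 for Pthlh with Gli1 and 0.207 for Pthlh with Ihh. Those of Ihh with the other 7 ran from -0.135 with Gli2 to 0.598 with Hhip, with 0.578 for Pth1r, 0.287 for Gli1 and 0.101 for Ptch1.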
